A study of Mus musculus with 23 samples.

Results

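Wild type olfactory bulb was compared with wild type hippocampus across all microRNAs (miRNAs) counted in a series of 23 mouse brain small RNA libraries. The 6 libraries were chosen by their labels: 3 of dissected olfactory bulb and 3 of dissected hippocampus, all from wild type C57BL/6 mice. The other 17 libraries are wild type cortex and cerebellum, and the same 4 regions of mice with a Cdr1as knockout, which lack a neuronal circular RNA that binds miR-7. Knockout olfactory bulb (3 libraries) and knockout hippocampus (2 libraries, numbered 2 and 3), also C57BL/6, gave the region comparison a second time, in libraries of neither wild type group. They entered the same model, so they share its filter and its estimate of spread with the wild type comparison. Age, sex and the number of animals were not given in the sources used here. Nothing says that the libraries of a group came from separate mice, so p-values measure only the spread between these libraries, which may be technical, and libraries of both regions may come from the same mice.

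A miRNA is a short RNA cut from a hairpin precursor, which can yield a mature strand from its 5p arm and another from its 3p arm. The loaded strand guides Argonaute to target mRNAs, mainly through its seed, bases 2 to 8, so miRNAs with the same seed share many targets. The olfactory bulb receives the axons of olfactory sensory neurons and gains new, mostly GABAergic interneurons throughout adult life, while the hippocampus is built mainly of glutamatergic pyramidal and granule neurons and lies beside the lateral ventricle with its choroid plexus. The miR-200 family and miR-183 cluster are best known from epithelia and sensory organs, and the miR-200 family also acts in olfactory neurogenesis.

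The miRNAs with the widest separation between the regions form a few sequence groups, shown here because members of the same seed group could be expected to act alike on targets. Capitals mark the seed, and sequences are mature forms from RefSeq (GRCm38.p6), which had a sequence for 562 of the 669 miRNAs tested. In the miR-200 family the 5 main strands carried 2 seeds that differ at 1 base.
miR-141-3p: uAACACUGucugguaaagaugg
miR-200a-3p: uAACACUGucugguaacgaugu
miR-200b-3p: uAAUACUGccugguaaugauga
miR-200c-3p: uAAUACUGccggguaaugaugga
miR-429-3p: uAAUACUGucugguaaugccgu
In the miR-183 cluster the 3 main strands each had a seed of their own.
miR-183-5p: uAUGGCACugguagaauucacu
miR-96-5p: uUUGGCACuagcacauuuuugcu
miR-182-5p: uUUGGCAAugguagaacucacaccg
The strands of the miR-34 and miR-449 family share a seed and went opposite ways in this comparison.
miR-34b-5p: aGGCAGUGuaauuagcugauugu
miR-449a-5p: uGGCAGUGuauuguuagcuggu
miR-449c-5p: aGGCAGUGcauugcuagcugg
The strands most raised in the olfactory bulb outside those families, among those with a high level there, and several of the most lowered had unrelated seeds.
miR-490-3p: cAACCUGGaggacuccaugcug
miR-592-5p: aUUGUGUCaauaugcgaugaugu
miR-1298-5p: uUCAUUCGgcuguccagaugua
miR-448-3p: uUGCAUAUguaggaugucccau
miR-127-3p: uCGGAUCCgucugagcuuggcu
miR-344d-3p: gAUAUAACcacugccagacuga
miR-218-5p: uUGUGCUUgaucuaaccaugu
miR-137-3p: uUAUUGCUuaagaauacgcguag

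The 6 libraries held 4951700 to 13070794 counts each, spread over 826 to 1049 miRNAs. Levels are given as CPM, read counts divided by a library size that was first scaled with TMM, a method that sets libraries level on the bulk of their miRNAs. Ligation bias in small RNA libraries differs between miRNAs, so an order of different miRNAs by level is one of reads only. A miRNA is called higher or lower where edgeR's quasi-likelihood test gave a Benjamini-Hochberg adjusted p under 0.05 over the 669 miRNAs and the difference was at least 2-fold. Of the 669, 87 were called higher in the olfactory bulb (13.0%) and 86 lower (12.9%), 25.9% in all. The 2 groups of 3 libraries did not overlap for 411 miRNAs (61.4%), 210 higher (31.4%) and 201 lower (30.0%). Outside the miR-200 family and miR-183 cluster, 72 of 654 miRNAs were called higher and 86 lower. The scaling matters here, because TMM factors were 0.698 to 0.729 in the olfactory bulb and 1.31 to 1.41 in the hippocampus. Scaled by library size only, the median difference of all miRNAs moves from -0.01 to -0.91 on the log2 scale, and 32 miRNAs are called higher and 292 lower. All 87 called higher stay positive under that scaling, 32 of them still called, and all 86 called lower stay called.

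**Figure D1:**
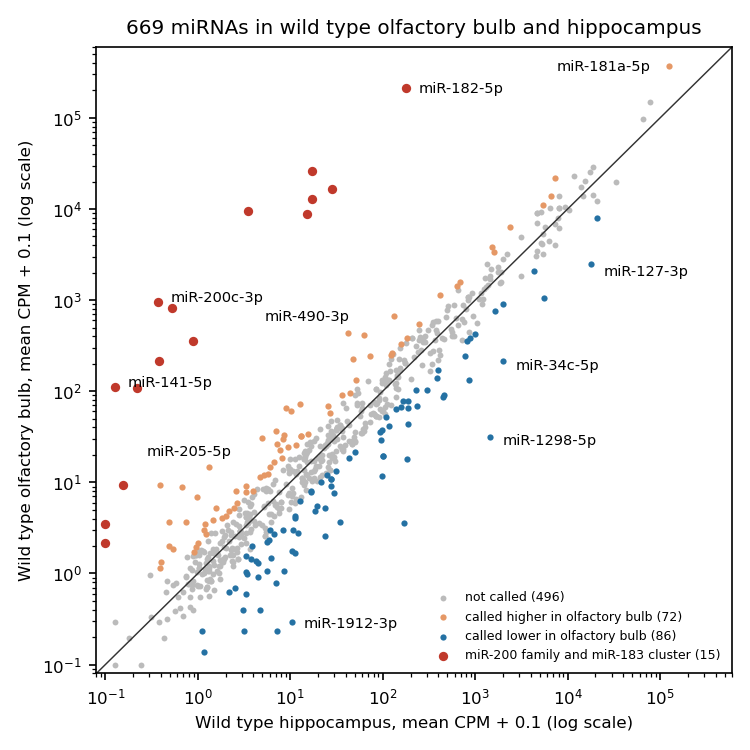
Mean CPM of 669 miRNAs in wild type hippocampus (x axis) and wild type olfactory bulb (y axis), 3 libraries each, with 0.1 CPM added to each mean and both axes on a log scale; the line marks equal levels. The 15 members of the miR-200 family and miR-183 cluster lie far above the line, 72 other miRNAs are called higher and 86 lower in the olfactory bulb.

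The miR-183 cluster and the miR-200 family were higher in the olfactory bulb in every tested member, 6 of 6 and 9 of 9, with the 1 other member in the files not tested. MiR-96-3p and miR-200c-5p had 0 hippocampal counts, so once kept by the filter they could not come out lower. In the fit of the 6 compared libraries only, the family count was 8. The median log2 difference was 9.89 for the cluster and 9.57 for the family, against -0.01 for all miRNAs tested. Both medians are the same with members that had no hippocampal count set at their lower bound. MiR-182-5p, the most abundant of them, had 221324, 196931 and 213587 CPM in the olfactory bulb libraries and 248, 132 and 152 CPM in the hippocampal ones. It took 15.0% of all olfactory bulb reads and 0.0237% of hippocampal reads on average. The groups lie 1189-fold apart (log2 difference 10.22, SE 0.52, edgeR adjusted p = 1.02e-12). In bulk tissue, fewer cells of a type and less RNA per cell cannot be told apart.

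Its cluster partners on chromosome 6 followed the same pattern. MiR-183-5p had 26258, 24368 and 27184 CPM against 21.5, 11.2 and 18.0 CPM (log2 difference 10.59), and miR-96-5p had 864, 876 and 696 CPM against 0.637, 0.480 and 0.164 CPM (10.89). The 3 precursors lie within 3820 bases (GRCm38.p6 chr6:30165918-30169737, minus strand), outside any annotated gene. The minor strands were scarce in the hippocampus: miR-96-3p had 66 counts in the olfactory bulb libraries and 0 in the hippocampal ones, at least 41.2-fold higher against a floor of 3 counts over the group. MiR-182-3p had 158 counts against 2, a ratio of 148 with a 95% counting interval of 40.2 to 1231. Such intervals and floors cover counting error only, since PCR copies of a molecule were not told apart.

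The miR-200 family comes from 2 places, and both were higher in the olfactory bulb. From chromosome 4 (chr4:156053905-156055750, minus strand, in an intron of Ttll10) miR-200a-3p had 13465, 13786 and 11804 CPM against 14.3, 15.8 and 21.2 CPM. From the same precursor cluster miR-200b-3p had 9377, 8856 and 8073 CPM against 12.7, 14.6 and 17.8 CPM. MiR-429-3p, the most abundant of the family, had 18888, 15817 and 14598 CPM against 27.4, 22.97 and 33.6 CPM (log2 difference 9.20, SE 0.53, edgeR adjusted p = 7.29e-12). The 3 strands of this locus therefore stood within 1 log2 unit of each other in their region difference, at 9.57, 9.18 and 9.20.

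The second locus, on chromosome 6 (chr6:124717914-124718390, minus strand), gave larger differences from lower hippocampal levels. MiR-141-3p had 9602, 9558 and 9705 CPM against 2.23, 3.12 and 4.75 CPM (11.46), and miR-200c-3p had 1007, 993 and 890 CPM against 0, 0.320 and 0.491 CPM (11.62). MiR-141-5p had 2017 counts against 1, a ratio of 3774 with a 95% counting interval of 677 to 149137, and miR-200c-5p had 37 against 0, at least 23.1-fold higher. Summed by seed, AACACUG strands (miR-141-3p and miR-200a-3p) held 23068, 23344 and 21509 CPM in the olfactory bulb and 16.6, 19.0 and 25.9 CPM in the hippocampus. AAUACUG strands (miR-200b-3p, miR-200c-3p and miR-429-3p) held 29272, 25666 and 23560 CPM against 40.1, 37.9 and 51.9 CPM. The remaining 3 strands tested, miR-200a-5p, miR-200b-5p and miR-183-3p, differed by 8.79, 9.67 and 9.56 on the log2 scale.

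Wild type cortex lay between the regions for these miRNAs, with miR-182-5p at 3681 ± 1223 CPM (SD, n = 3), and wild type cerebellum held 888 ± 115 CPM (SD, n = 3). Whether tissue of neighbouring regions entered a dissection was not tested.

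Beyond those families, miR-490-3p, miR-592-5p and miR-224-5p were called higher, and each lies within a neurotransmitter receptor gene, a grouping made after the values were seen. MiR-490-3p, in an intron of the muscarinic receptor gene Chrm2 on chromosome 6, had 477, 401 and 416 CPM against 42.4, 38.6 and 44.1 CPM. The libraries of each region agree closely and the groups are 10.3-fold apart (log2 difference 3.37, SE 0.20, edgeR adjusted p = 1.64e-11). MiR-592-5p, overlapping an annotated exon of the metabotropic glutamate receptor gene Grm8 on the same chromosome, had 427, 403 and 413 CPM against 58.4, 62.1 and 66.9 CPM (2.73, SE 0.10, edgeR adjusted p = 5.84e-15). MiR-224-5p, in an intron of the GABA-A receptor subunit gene Gabre on the X chromosome, was scarcer, at 10.3, 11.2 and 6.07 CPM against 0.212, 0.400 and 0.245 CPM, with a log2 difference of 4.93 (edgeR adjusted p = 2.88e-09). It lies under the mean of 10 CPM set for the miRNAs named by size and was added after its values were seen.

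Some miRNAs known from epithelia or endocrine cells were also called higher. MiR-205-5p, a miRNA of stratified epithelia, had 12.9, 15.0 and 16.5 CPM against 1.49, 0.640 and 1.55 CPM (3.58). MiR-203-3p, known from skin, had 213, 261 and 194.97 CPM against 42.8, 47.0 and 52.6 CPM (2.23). MiR-375-3p, the miRNA of pancreatic islets and other endocrine cells, had 680, 662 and 670 CPM against 162, 89.0 and 146 CPM (2.34, SE 0.35, edgeR adjusted p = 9.27e-06). MiR-184-3p, abundant in lens and cornea, had 30.5, 41.7 and 37.6 CPM against 8.28, 6.96 and 5.48 CPM (2.40). For all 4 the lowest olfactory bulb library lies above the highest hippocampal one, as the rule that named them by size required. Over all 669 miRNAs 31.4% were separated in this direction. The list of other epithelial miRNAs (miR-192, miR-194, miR-203, miR-205 and miR-215) had 3 of 6 tested members higher and none lower, beside 13.0% higher of all 669 miRNAs. Of those not called, miR-192-5p had 1380 CPM against 1316 CPM on average, and miR-194-5p had 164, 177 and 165 CPM against 124, 127 and 105 CPM, groups that do not overlap at a log2 difference of 0.51.

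The other miRNAs named by size were miR-135b-5p (64.6 ± 4.78 CPM against 8.91 ± 0.609 CPM; SD, n = 3 each), in an intron of Lemd1, with a log2 difference of 2.85, and both strands of miR-130b. MiR-130b-5p differed by 2.65 and miR-130b-3p by 2.53, the latter at 74.3, 73.6 and 68.6 CPM against 13.5, 13.0 and 11.05 CPM. MiR-301b-3p, its neighbour in the genome, was higher by 1.81. MiR-378b (2.60), miR-455-5p (1.98) and miR-449a-5p (1.87) completed the 12. Under library size scaling 11 of these 12 stay called, and miR-449a-5p is at 0.96, just under the 2-fold limit.

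**Figure D2:**
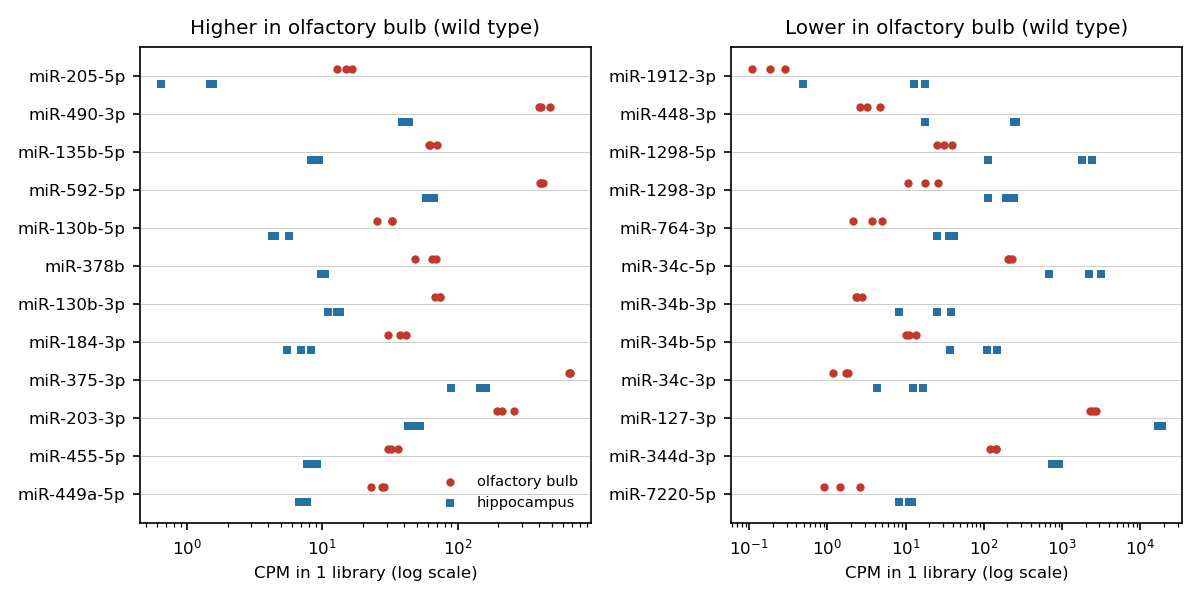
CPM in each of the 6 wild type libraries (x axis, log scale) for the 12 miRNAs with the largest positive (left) and the 12 with the largest negative (right) log2 difference outside the miR-200 family and miR-183 cluster, red circles for olfactory bulb and blue squares for hippocampus. The regions do not overlap for any of the 24, which the rule of choice required, and 1 hippocampal library lies below the other 2 in the upper rows of the right panel.

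Among the miRNAs with the most reads in both regions, miR-181a-5p was called and miR-9-5p was not. MiR-181a-5p, a neuronal and lymphoid miRNA, was the most abundant miRNA in 6 of 6 libraries. It had 364373, 352205 and 385756 CPM against 123094, 123222 and 132743 CPM (log2 difference 1.54, SE 0.12, edgeR adjusted p = 9.36e-10), and 26.2% of reads against 17.0%. Of the miR-181 family 4 of 7 tested members were called higher and none lower (2 higher with upper quartile scaling). Over all 669 miRNAs 13.0% were called higher. MiR-181b-5p differed by 1.56, miR-181d-5p by 1.16 and miR-181c-5p by 1.01. MiR-9-5p, which acts in neural progenitors, had 142693, 149671 and 150904 CPM against 81662, 86678 and 65935 CPM, a log2 difference of 0.92 that is under 2-fold. Its share of reads was 10.5% in both regions, so the direction of miR-9-5p in CPM comes with the scaling (0.01 by library size only). MiR-26a-5p had a log2 difference of 0.58, which turns to -0.34 by library size only.

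Lists linked to cell division or to neuronal activity had some members called higher on the TMM scale. Over all 669 miRNAs 13.0% were called higher on that scale. Of the miR-17/92 cluster and its paralogues, which act in dividing progenitors, 8 of 16 tested members were called higher, such as miR-25-3p (1130 ± 71.8 CPM against 414 ± 30.8 CPM; SD, n = 3 each; log2 difference 1.45), miR-18a-5p (1.44) and miR-92a-3p (1.09). Upper quartile scaling or no low-count filter gave 4 in place of 8. Of the family of miR-15, miR-16, miR-195 and miR-497, which restrains the cell cycle, 4 of 14 were higher, among them miR-15b-5p (1.30), miR-16-5p (1.08) and miR-195a-5p (1.07). That count was 8 without hippocampus replicate 3, and 2 with upper quartile scaling or no filter. Of the activity-induced cluster of miR-132 and miR-212 2 of 4 were higher, miR-132-3p at 3871 ± 245 CPM against 1521 ± 218 CPM (SD, n = 3 each; 1.35) and miR-132-5p (1.05), a count of 1 without hippocampus replicate 3, with upper quartile scaling or with no filter. No member of these 3 lists or of the miR-181 family is called higher under library size scaling, where their median differences were 0.09, -0.14, -0.07 and 0.09. The median of all miRNAs on that scale is -0.91.

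Among miRNAs lower in the olfactory bulb, several neuronal and imprinted miRNAs varied little within a region. MiR-127-3p, an imprinted miRNA transcribed antisense to Rtl1 on chromosome 12, had 2307, 2497 and 2703 CPM in the olfactory bulb and 18175, 18665 and 16718 CPM in the hippocampus. It was 7.14-fold higher in the hippocampus (log2 difference -2.83, SE 0.14, edgeR adjusted p = 1.02e-12) and took 0.178% of olfactory bulb and 2.40% of hippocampal reads. MiR-218-5p, in introns of the axon guidance genes Slit2 and Slit3, had 979, 1088 and 1137 CPM against 5602, 5526 and 5525 CPM (-2.38, SE 0.13, edgeR adjusted p = 4.98e-12). MiR-137-3p, a regulator of neuronal maturation, had 89.8, 89.5 and 77.5 CPM against 434, 475 and 422 CPM (-2.37).

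MiR-138-5p, a regulator of dendritic spines, had 11214, 6429 and 6233 CPM against 24407, 20243 and 18318 CPM (-1.40, SE 0.25, edgeR adjusted p = 9.21e-05), with olfactory bulb replicate 1 nearest the hippocampus. Of the synaptic list of miR-138 and miR-218 strands 4 of 6 were lower and none higher, beside 12.9% lower of all 669 miRNAs. MiR-873a-5p, in an intron of Lingo2, differed by -2.36, miR-551b-3p by -2.35 and the neuronal miR-598-3p by -1.54. On the TMM scale not every neuronal miRNA was lower: of the neuronal identity list 2 of 8 were called lower and none higher (1 higher with DESeq2, with RLE scaling, or without hippocampus replicate 2 or olfactory bulb replicate 1), and miR-124-3p, the most neuron-restricted of them, had 23276 ± 1645 CPM against 11856 ± 179 CPM (SD, n = 3 each; 0.97, under 2-fold). By library size only 3 of the 8 are called lower and 0 higher, beside 292 lower of all 669 miRNAs. The list median then turns from 0.52 to -0.39, where the median of all miRNAs is -0.91.

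The Dlk1-Dio3 imprinted region on chromosome 12, whose miRNAs are expressed from the maternal chromosome, held 27 of the 86 miRNAs called lower (31.4%). It also held 84 of the 669 miRNAs tested. Of the anti-Rtl1 miRNAs 5 of 21 were lower (23.8%), and of the neighbouring miR-379/410 cluster 22 of 63 (34.9%), with none higher in either. Over all miRNAs tested 12.9% were called lower. Their median differences were -0.82 and -0.78. On the TMM scale 17 of 21 and 58 of 63 had a negative difference, beside 336 of all 669 miRNAs. By library size only, 16 of 21 and 54 of 63 are called lower, beside 292 of all 669 miRNAs. The anti-Rtl1 count was 8 without hippocampus replicate 3, 8 with no filter and 9 with upper quartile scaling. Beside miR-127-3p the members furthest apart included miR-770-5p (7.29, 3.84 and 4.34 CPM against 17.6, 26.3 and 27.7 CPM; -2.14) and miR-376a-5p (55.9, 35.1 and 41.4 CPM against 191, 187 and 178 CPM; -2.06). The abundant miR-541-5p, at 2096 ± 300 CPM against 4303 ± 571 CPM (SD, n = 3 each), differed by -1.04, and miR-409-3p by -1.17. MiR-541-5p loses its call without olfactory bulb replicate 1, hippocampus replicate 1 or hippocampus replicate 2. Imprinting control was not measured in these libraries.

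A separate imprinted region on chromosome 7 gave calls in both directions. Of the miR-344 family there, 3 of 7 tested members were lower and 1 higher in the olfactory bulb. Over all 669 miRNAs 12.9% were called lower and 13.0% higher. MiR-344d-3p had 141, 121 and 141 CPM against 920, 923 and 750 CPM (-2.69, SE 0.20, edgeR adjusted p = 6.47e-10), miR-344b-3p differed by -2.38 and miR-344d-3-5p by -3.34. MiR-344-3p went the other way, at 603, 527 and 529 CPM against 223, 257 and 254 CPM (1.18). By library size only the latter is not called, and no member of the family is called higher.

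The largest negative differences came from miRNAs in introns of Htr2c, the serotonin receptor gene of the choroid plexus and of some neurons, on the X chromosome. Of the Htr2c intron list 7 of 7 tested members were lower in the olfactory bulb, beside 12.9% of all 669 miRNAs. With the annotated intronic miR-764 strands and miR-3552 it was 10 of 10. Of these 10, 8 are placed in Htr2c by the annotation used here, while the miR-1264 strands come from the list only. With limma-voom miR-1912-3p loses its call (log2 difference -4.22, adjusted p = 0.165), and 6 of 7 list members are called. In the fit of the 6 compared libraries only, with or without the replicate block, the list count was also 6. MiR-1912-3p was not tested in the 6-library fit. MiR-1912-3p, miR-3552 and miR-1264-5p had 2 or 3 olfactory bulb counts in all, so once kept by the filter they could hardly come out higher. For all 10 the wild type groups did not overlap, as for 30.0% of all 669 miRNAs in this direction. For all 10 hippocampus replicate 2 had the lowest of the 3 hippocampal values. MiR-1298-5p had 24.9, 30.7 and 39.1 CPM in the olfactory bulb and 1816, 112 and 2385 CPM in the hippocampus (log2 difference -5.53, SE 1.09, edgeR adjusted p = 0.000226). MiR-448-3p had 2.57, 4.76 and 3.18 CPM against 240, 17.8 and 254 CPM (-5.63, SE 1.14, edgeR adjusted p = 0.000286). Hippocampus replicate 2 therefore stands more than 10-fold below its group for these strands, and still above every olfactory bulb library.

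The scarcer Htr2c strands were also lowest in hippocampus replicate 2 among the hippocampal libraries. MiR-1912-3p had 3 counts in the olfactory bulb libraries and 340 in the hippocampal ones, a ratio of 60.6 with a 95% counting interval of 20.6 to 295, and miR-3552 had 3 and 233, a ratio of 41.5 (14.0 to 203). MiR-1264-5p had 2 and 104, a ratio of 27.8 (7.50 to 233). MiR-1298-3p had 10.7, 17.6 and 26.04 CPM against 194.6, 114 and 242 CPM (-3.39), and miR-764-3p had 2.15, 3.66 and 4.92 CPM against 36.1, 25.5 and 41.4 CPM (-3.37). With hippocampus replicate 2 alone standing for the region, the median is -2.53 in place of -4.17. This setting was chosen after seeing the data and has 1 library in an arm, which is assumed to vary like the other groups, since these supply the spread. On that assumption 5 of the 10 are called. MiR-1298-5p is then at -1.84 (edgeR adjusted p = 0.167) and miR-448-3p at -2.36 (0.122). MiR-1912-3p (-1.44), miR-1264-3p (-1.63) and miR-1264-5p (-3.16) are also not called. Without that replicate 10 of 10 are called.

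The miR-34b/34c pair, processed from chromosome 9 and known from multiciliated cells, showed the same dip in hippocampus replicate 2. MiR-34c-5p had 209, 201 and 228 CPM against 2185, 671 and 3175 CPM (-3.24, SE 0.44, edgeR adjusted p = 2.99e-06). MiR-34b-5p had 9.98, 11.2 and 13.6 CPM against 110, 36.9 and 149 CPM (-3.11). All 4 strands of the pair were lower (miR-34b-3p -3.22 and miR-34c-3p -2.86), and with hippocampus replicate 2 alone, a single library whose spread is again taken from the other groups, their differences were -1.69 to -1.50. The related miR-449, in an intron of Cdc20b and also known from multiciliated cells, went the other way. MiR-449a-5p had 22.8, 28.5 and 27.8 CPM against 7.004, 7.76 and 6.71 CPM (1.87, SE 0.20, edgeR adjusted p = 1.44e-07), and miR-449c-5p had 3.003, 3.66 and 4.05 CPM against 0.424, 0.960 and 0.573 CPM (2.36). The p53 target miR-34a-5p, also of this family, had a log2 difference of -0.68, under 2-fold.

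Summed levels of lists linked to choroid plexus or ciliated cells are given beside these results. The summed level of the Htr2c intron list ran from 39.6 to 70.6 CPM in the olfactory bulb and from 251 to 2920 CPM in the hippocampus, and that of the miR-34 and miR-449 family from 269 to 299 CPM and from 762 to 3431 CPM. For miR-204 and miR-211, of which miR-204-5p in an intron of Trpm3 is abundant in the choroid plexus, the sums were 3776 to 4905 CPM and 2234 to 7414 CPM, and 0 of 3 members were called with TMM, 1 higher without hippocampus replicate 3 and 2 lower by library size only. That scaling calls 292 of all 669 miRNAs lower. MiR-204-5p had 4874, 3819 and 3744 CPM in the olfactory bulb and 6244, 2225 and 7391 CPM in the hippocampus, so the groups overlap (log2 difference -0.35, edgeR adjusted p = 0.312). With hippocampus replicate 2 alone the value is 0.90. The part of choroid plexus or ependyma in the Htr2c and miR-34b/34c differences was not tested.

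**Figure D3:**
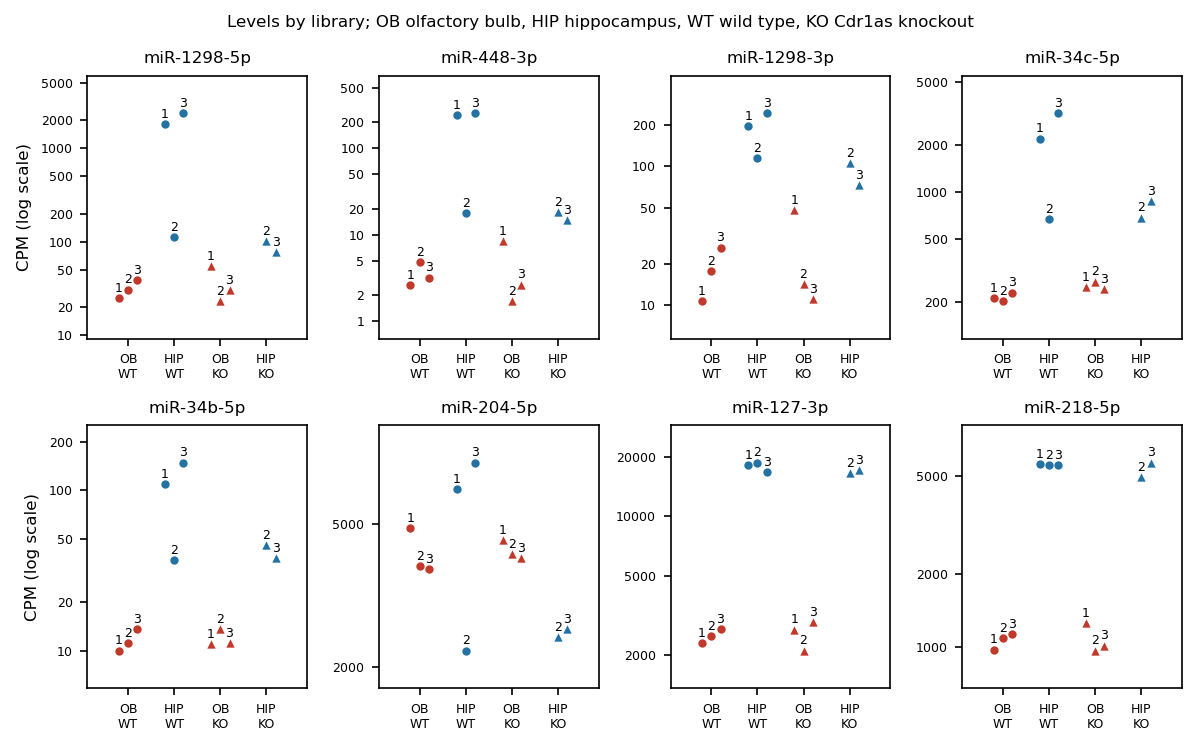
CPM per library (y axis, log scale) for 8 miRNAs in olfactory bulb (red) and hippocampus (blue), circles for wild type and triangles for Cdr1as knockout, with the replicate number beside each point. Wild type hippocampus replicate 2 lies near the knockout hippocampal libraries for miR-1298-5p, miR-448-3p, miR-34c-5p, miR-34b-5p and miR-204-5p, while miR-127-3p and miR-218-5p are level over all hippocampal libraries.

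Lists for other cells the dissections could hold had 0 to 2 members called with TMM. Over all 669 miRNAs 13.0% were called higher and 12.9% lower. By library size only 32 of the 669 are called higher and 292 lower. Of the oligodendrocyte list 2 of 5 were lower in the olfactory bulb: miR-219a-2-3p had 126, 136 and 161 CPM against 420, 324 and 429 CPM (-1.47), and miR-219a-5p differed by -1.51, while miR-338-3p (1025 CPM against 1215 CPM on average) was not called. Of the microglia and leukocyte list 2 of 7 were higher, miR-146a-5p (133, 320 and 273 CPM against 79.0, 63.5 and 75.2 CPM; 1.74) and the low miR-155-5p (1.06). MiR-142a-5p and miR-223-3p were not called. This count is 1 without olfactory bulb replicate 2, with limma-voom, with upper quartile scaling or with no low-count filter. It is 3 without hippocampus replicate 3. Of this list 1 member is called lower with limma-voom, upper quartile scaling, no filter or a replicate block. The same holds without hippocampus replicate 2 or 3, or without olfactory bulb replicate 1. By library size only the list has 0 higher and 2 lower. Of the red blood cell list 2 of 7 were higher, miR-486a-3p (1.33) and miR-486b-3p (1.30), which come from overlapping loci and can share reads, and miR-451a, at 131 CPM against 113 CPM on average, was not called. All 7 had a positive difference, and 4 are called higher without hippocampus replicate 2 or without olfactory bulb replicate 1, and 0 by library size only. None of 6 endothelial and mural miRNAs was called with TMM, all 6 had a negative difference, and 5 are called lower by library size only. Of 5 mesenchymal and meningeal miRNAs 2 were higher, miR-214-3p (1.37) and miR-199a-5p (1.10), the latter with overlapping groups. This count is 0 without olfactory bulb replicate 3 and by library size only, 1 without hippocampus replicate 1 or 2, and 4 without hippocampus replicate 3. Of 4 muscle miRNAs 1 was lower, miR-133b-3p (-1.44), and 4 by library size only. Their part in the region differences was not tested.

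None of 11 miR-30 miRNAs was called, but all 11 had a positive difference (median 0.69), and 1 is called without hippocampus replicate 1. By library size only the miR-30 median is -0.23, so the direction of this median comes with the scaling. Over all 669 miRNAs 13.0% were called higher and 12.9% lower with TMM. By library size only 292 of the 669 are called lower, and the median of all miRNAs is -0.91. None of 7 miR-29 miRNAs was called with TMM, 6 had a negative difference (median -0.51), and 6 are called lower by library size only. Of 22 let-7 miRNAs 1 was called lower, the scarce let-7c-1-3p (-1.69), and the list had a median of 0.19; by library size only 6 are called lower. None of the 36 tested miRNAs in the repeats of Sfmbt2 was called with TMM (median 0.08), and 7 are called lower by library size only. Neither of 2 Hox-cluster miRNAs was called, while both are called higher with DESeq2, with RLE scaling, or without hippocampus replicate 3 or olfactory bulb replicate 1, and 1 is called without hippocampus replicate 2 or olfactory bulb replicate 2 or 3. Of the family of miR-99, miR-100 and miR-125 2 of 11 were higher, miR-99b-5p (1.43) and miR-100-5p (1.20), neither of them by library size only, and 2 lower, the strands miR-125b-2-3p (-1.67) and miR-99a-3p (-1.40). Of the cluster of miR-221 and miR-222 3 of 4 were lower, with miR-222-3p at 416, 438 and 412 CPM against 1052, 1160 and 806 CPM (-1.25). Of the miR-129 family 1 of 3 was higher, miR-129-1-3p (1.38). None of the 7 miRNAs linked to Cdr1as was called with TMM, 5 are called lower by library size only, and 1 is called without hippocampus replicate 3 or olfactory bulb replicate 1. MiR-7a-5p had a log2 difference of -0.36 on the TMM scale, miR-7b-5p of -0.09, and miR-671-5p of -0.94 (12.5 ± 1.002 CPM against 24.1 ± 3.98 CPM; SD, n = 3 each), the last past the adjusted threshold at under 2-fold (edgeR adjusted p = 3.18e-05).

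**Figure D4:**
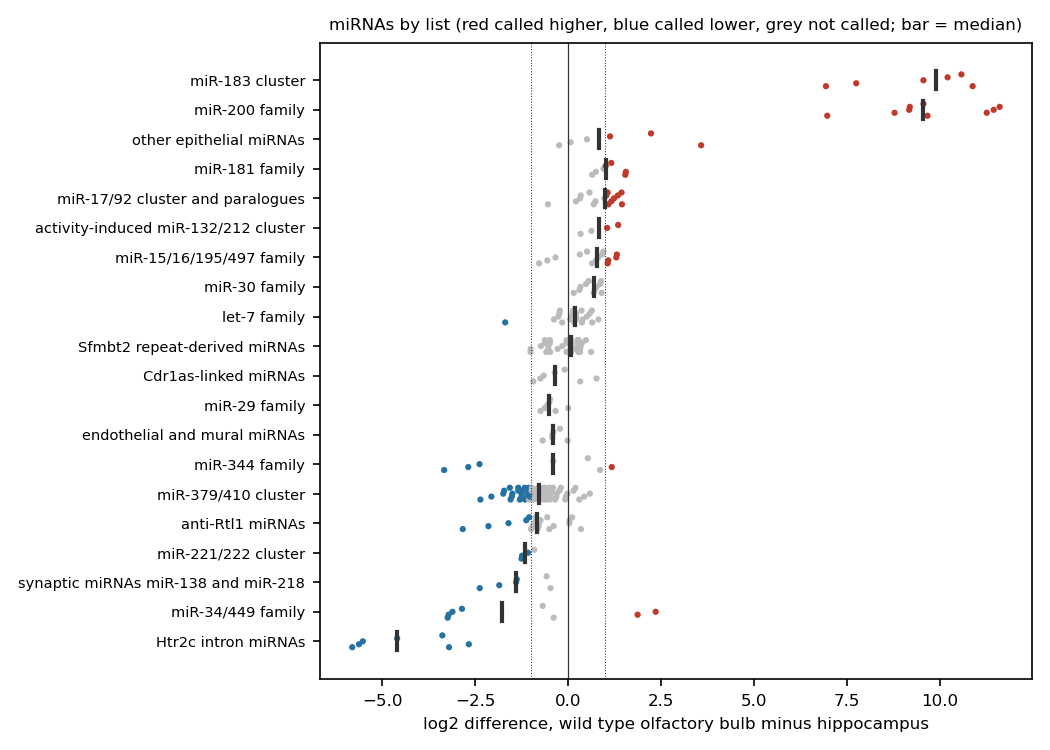
Log2 difference of wild type olfactory bulb minus wild type hippocampus (x axis) for the tested members of 20 miRNA lists (rows), 1 point per miRNA, red for called higher, blue for called lower and grey for not called, with a bar at each median and dotted lines at a 2-fold difference. The miR-183 cluster and miR-200 family sit at medians of 9.89 and 9.57, the Htr2c intron list at -4.60, and the miR-34 and miR-449 family and the miR-344 family hold calls on both sides of 0.

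The region difference was then measured in the Cdr1as knockout libraries, as another contrast of the same model. There 79 miRNAs were called higher (11.8%) and 79 lower (11.8%), 23.6% in all. Of these, 129 were called the same way in both genotypes, which is 74.6% of the wild type and 81.6% of the knockout calls, and none was called opposite ways. Of the 173 wild type calls 170 had the same sign in knockout. The log2 differences correlated with Pearson's r of 0.927 over 669 miRNAs and 0.806 over the 654 outside the miR-200 family and miR-183 cluster, a description across miRNAs, which are not independent and share the depth of their libraries. The interaction of region and genotype passed for 0 miRNAs with edgeR (smallest adjusted p = 0.598), 18 had an unadjusted p under 0.05, and DESeq2 and limma-voom gave 0 as well.

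Single miRNAs had close values in both genotypes. MiR-182-5p had 301015, 194713 and 159512 CPM in knockout olfactory bulb and 165 and 103 CPM in knockout hippocampus. MiR-490-3p had 419, 416 and 498 CPM and 39.0 and 38.6 CPM, and miR-127-3p had 2693, 2112 and 2938 CPM and 16545 and 17173 CPM. Their knockout log2 differences were 10.67, 3.51 and -2.71, against 10.22, 3.37 and -2.83 in wild type. The miR-200 family and miR-183 cluster were again higher in 9 of 9 and 6 of 6.

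The Htr2c miRNAs had fewer calls in knockout, with 10 of 10 lower in wild type and 3 of 10 lower in knockout, at medians of -4.17 and -1.58. MiR-1298-5p had 55.3, 23.1 and 30.1 CPM in knockout olfactory bulb and 102 and 76.9 CPM in knockout hippocampus, values near the 112 CPM of wild type hippocampus replicate 2. The genotype difference of the region effect did not pass for any of the 10 (smallest edgeR adjusted p = 0.99986), and for miR-1298-5p it was -4.22 with an SE of 1.47. Without the low-count filter it passed for 15 miRNAs, 6 of them from this group. MiR-34c-5p had 247, 268 and 240 CPM and 686 and 870 CPM in knockout, with a log2 difference of -1.63 that is still called.

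The ratio of the 5p to the 3p strand of a precursor is taken within a library and does not depend on scaling. It was compared for the 219 precursors with both strands tested, as log2 of the counts with 0.5 added to each, and 41 differed between the regions (limma adjusted p under 0.05, 18.7%), 25 with a higher 5p share in the olfactory bulb (11.4%) and 16 with a lower one (7.31%). The same sign was seen in knockout for 41 of 41, and 18 of the 41 differed by at least 2-fold. MiR-127 had a log2 ratio of -2.44, -2.71 and -2.78 in the olfactory bulb and -5.12, -4.90 and -4.91 in the hippocampus, a difference of 2.34 (SE 0.23, limma adjusted p = 1.36e-06). The regional difference of this precursor is thus larger in its 3p strand, with miR-127-5p at 400 CPM against 568 CPM on average (log2 difference -0.50 on the TMM scale). Unlike the ratio, the difference of a single strand depends on scaling, and the median of all miRNAs is -0.91 by library size only.

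Other abundant precursors with a changed strand ratio were miR-99b (difference 1.50, SE 0.31, limma adjusted p = 0.00263), miR-125b (1.11), miR-134 (0.95) and miR-181a (0.59). For miR-99b the 5p strand was higher in the olfactory bulb on the TMM scale, where miR-99b-3p was level (-0.03). By library size only miR-99b-5p is not called. MiR-671, whose 5p strand can slice Cdr1as, had a log2 ratio of -3.20, -3.20 and -3.50 in the olfactory bulb against -1.88, -2.12 and -2.13 in the hippocampus (difference -1.25). For 8 of the 41 the more abundant strand itself changed. MiR-431, of the imprinted region, had more 5p than 3p in the olfactory bulb (log2 ratio 0.98, 0.99 and 0.77) and about as much of each in the hippocampus (0.02, -0.34 and -0.37). The others were miR-369, miR-872, miR-673, miR-361, miR-339, miR-1981 and miR-374c. MiR-200c, miR-96 and miR-182 also passed, but their minor strands had 0, 0 and 2 hippocampal counts, so the size of their difference rests on the added 0.5. The count of 41 fell to 26, 24 and 23 without olfactory bulb replicate 2, olfactory bulb replicate 3 and hippocampus replicate 3, respectively.

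**Figure D5:**
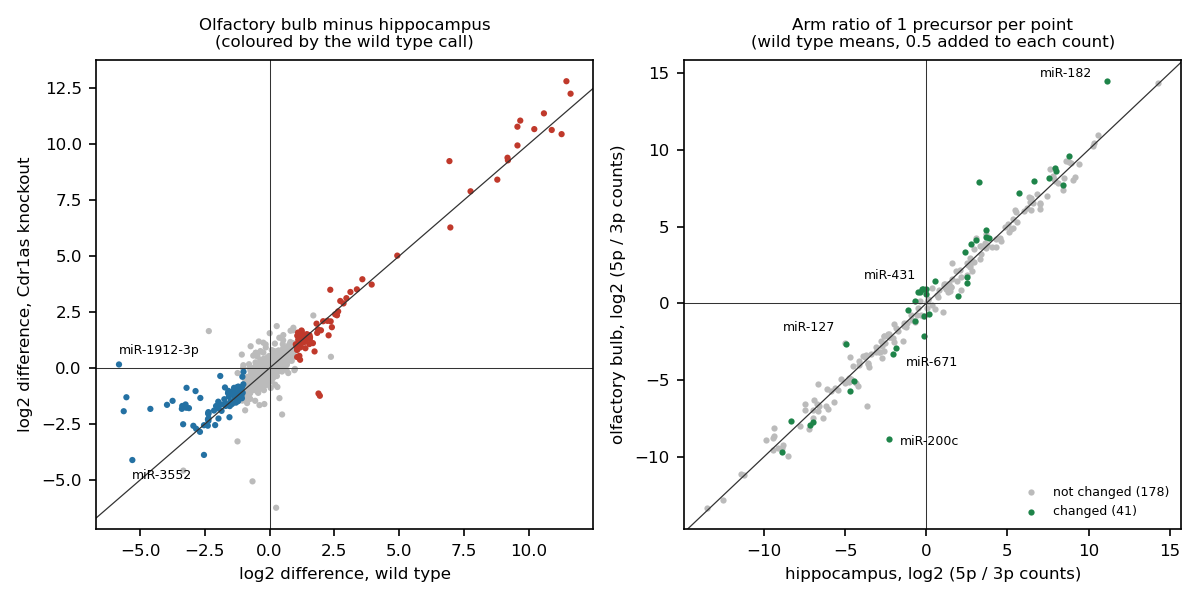
Left, log2 difference of olfactory bulb minus hippocampus in wild type (x axis) and Cdr1as knockout (y axis) for 669 miRNAs, coloured by the wild type call (red higher, blue lower, grey not called). Right, mean log2 ratio of 5p to 3p counts (0.5 added to each) in wild type hippocampus (x axis) and olfactory bulb (y axis) for 219 precursors, with the 41 that differed in green; lines mark equality, and miR-127 lies 2.34 above it.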

How the data were processed

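The deposited files hold raw counts, whole numbers for the same 1915 mature miRNA names in each library. Per the labels' protocols, RNA was taken up in TRIZOL and made into libraries with the TruSeq kit for small RNA. The genome build was mm9, per the submitters' processing notes. Aligner, counting program, annotation version and the handling of multiply matching reads were not given in the sources used here.

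FilterByExpr (8 groups; minimum count 10, minimum total 15) kept 669 of the 1459 miRNAs with a count, holding at least 99.988% of each library's reads. One edgeR 4.0.16 model (R 4.3.3) with a mean for each of 8 groups was fitted to all 23 libraries with TMM factors; tests were two-sided with Benjamini-Hochberg adjustment. CPM use TMM-scaled library sizes, so their sums differ between libraries. Strand ratios were tested with limma 3.58.1 with a trend. DESeq2 1.42.0, limma-voom, other scalings, no filter, fewer libraries, a replicate block and left-out replicates were alternatives. Scripts were tested on simulated data. Sequences and loci are from RefSeq GRCm38.p6, a build other than that of the files, and host genes from GENCODE M21.

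Named miRNAs were the 12 called miRNAs with the largest and the 12 with the smallest log2 difference outside the miR-200 family and miR-183 cluster (at least 10 CPM in the higher group, no overlap), the 10 with the largest CPM difference, leading (up to 4) or called members of the lists, all miR-200 and miR-183 members, and the 10 precursors with the smallest p. The members and lists were chosen with earlier results of these data known.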

Additional observations from a re-analysis of the deposited data

How the results depend on the processing

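Library size only as the scaling gave 32 miRNAs higher and 292 lower in wild type and 30 higher and 265 lower in knockout, against 87, 86, 79 and 79 with TMM, and miR-26a-5p turned to -0.34. In knockout, upper quartile scaling gave 122 lower and no low-count filter 121. The interaction of region and genotype passed for 15 miRNAs with no filter, and for 1 without wild type hippocampus replicate 2 (miR-204-5p) or without knockout hippocampus replicate 2 (miR-1247-5p); leaving out each replicate gave 0 to 1. Leaving out each replicate gave 83 to 95 higher and 83 to 98 lower in wild type, 71 to 88 and 73 to 86 in knockout, and 23 to 47 strand ratios. MiR-7b-5p, at -0.09, ran from -0.23 (without olfactory bulb replicate 2) to 0.12 (without hippocampus replicate 2), with 0.07 without olfactory bulb replicate 1, and miR-204-5p was at 0.90 with hippocampus replicate 2 alone, chosen after seeing the data. For each of these the cause was not tested. Libraries of the 2 regions with the same replicate number had correlations of their deviations of -0.04, 0.08 and 0.005 (replicates 1, 2 and 3). Such values cannot tell whether these libraries come from the same mice. With the replicate block 86 were higher in the fit of 23 libraries and 80 in that of 6. Depth limits miRNAs with few or 0 counts in a region, for which bounds or counting intervals are given.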

Other observations

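Within clusters of miRNA genes, calls went 1 way. Of 42 clusters of at least 2 precursors within 10000 bases of the next (GRCm38.p6) that held a tested miRNA, 25 had a call, 16 with higher calls only and 9 with lower calls only. Of these, 20 held at least 2 called miRNAs. Only those 20 could hold calls both ways, and none did. Some miRNAs, such as miR-181a-5p and miR-92a-3p, come from several clusters and count in each. The miR-344 family on chromosome 7 holds calls both ways, but the genes of its higher strand lie further than 10000 bases from those of its lower strands. The 2 strands of a precursor also went together: of 205 precursors with a single name per strand, 73 had a call, 33 had both strands called the same way, and none had them called opposite ways. Strands of a precursor and precursors of a cluster share a transcript, so these counts describe few independent units.

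Calls were also counted over miRNAs with the same seed. Of 55 seeds shared by at least 2 tested miRNAs, 26 had a called member. Only 12 had at least 2 called members and so could hold calls both ways, and 2 of these did. The first was the GGCAGUG seed of the miR-34 and miR-449 family. The other was ACACACC, carried by miR-329-3p of the imprinted region on chromosome 12, lower at 15.8, 11.7 and 8.39 CPM against 16.02, 26.3 and 32.0 CPM (log2 difference -1.01), and by miR-362-3p on the X chromosome, higher at 20.1, 29.6 and 23.7 CPM against 8.70, 10.6 and 8.51 CPM (1.39). The summed level of this seed was 36.4 CPM in the olfactory bulb and 34.0 CPM in the hippocampus on average. MiR-329-3p loses its call with RLE scaling, DESeq2, limma-voom or some left-out replicates, so that seed rests on a call near the limit.
miR-329-3p: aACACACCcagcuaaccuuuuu
miR-362-3p: aACACACCuguucaaggauuca

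The other wild type regions did not all lie between these 2 regions for the named miRNAs. MiR-127-3p was at 3727 ± 531 CPM in cortex and 15498 ± 1967 CPM in cerebellum (SD, n = 3 each), near the olfactory bulb and near the hippocampus, respectively. MiR-344d-3p was at 640 ± 49.9 CPM in cortex and 44.4 ± 12.6 CPM in cerebellum, and miR-490-3p at 97.5 ± 9.995 CPM and 35.4 ± 10.4 CPM.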
